A study of Rattus norvegicus with 8 samples.

Results

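Genes for collagens, for other proteins of the extracellular matrix and for proteins of the myofibroblast were followed through kidneys of rats with and without induced renal stones. The list holds 40 gene symbols, and 33 of them had a named probe set among the 15037 named genes on the array, each with 1 probe set. Col5a2, Col6a1, Col6a3, Col12a1, Col4a2, Fbln2 and Lox were not analysed here. A probe set was tested where the highest of its 8 values reached the median of all values in the table, 7.54 on the log2 scale, and 31 of the 33 passed. The microfibril gene Mfap5, at 5.35 to 6.10, and the proteoglycan gene Lum, which was not above the background probes on any array, did not pass.

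Male rats of the Sprague-Dawley strain were studied at 10 weeks of age. Their kidneys were split into the renal outer medulla and the renal cortex, and RNA of each zone was read on 1 Clariom S array for each of 4 treatments. EG rats received ethylene glycol and alfacalcidol, a vitamin D analogue, for 2 weeks to induce renal stones. EG with phlorizin rats received the same together with phlorizin, an inhibitor of sodium-glucose cotransporters, phlorizin rats received it without stone induction, and control rats received neither. The study asked how inhibition of the cotransporter SGLT2 relates to stone formation. The sources used here do not give doses, the number of animals or whether their RNA was pooled, and both zones of a treatment can come from the same kidneys.

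Ethylene glycol is converted in the body to oxalate, which forms calcium oxalate crystals in the tubules. In an injured kidney, interstitial fibroblasts and pericytes can become myofibroblasts, cells that contain smooth muscle actin and secrete fibrillar collagens, fibronectin and other matrix. Basement membrane collagens form sheets under tubules and vessels, elastic fibres are made of elastin laid on fibrillin microfibrils, and small proteoglycans bind collagen fibrils and growth factors.

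Values are RMA expression values on a log2 scale, so a difference of 1 is a doubling of the linear signal. With 1 array per zone and treatment there was no replicate, and differences between treatments within a zone carry no test. The 23 background probes averaged 5.53 to 5.68 per array, and a difference against a value at or below that mean is given as "at least". Proximal tubule markers averaged 7.57 to 8.10 in the outer medulla and 16.50 to 17.26 in the cortex, in the order that the zone labels call for. The poly-A spikes, which track RNA labelling, averaged 6.42 on the cortex EG array and 7.67 to 8.23 on the other cortex arrays, against 7.46 to 7.66 in the outer medulla. The hybridisation spikes were lowest on the EG array of each zone, at 10.65 in the outer medulla, with 10.39 in the cortex, and averaged 10.80 to 11.33 on the other 6 arrays. Every cortex difference that involves EG without phlorizin rests on the cortex EG array, and the outer medulla values do not use it.

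Matrix and myofibroblast genes were higher with EG than in control in both zones. Of the 31 tested members, 26 were at least 1 higher on the log2 scale in both zones, where 4.9% of all 13163 tested probe sets were. Col8a1, Col14a1 and Postn are among the 26. They reached the filter value on EG arrays alone, so the filter fixed where their highest value lay. The median difference over the members was 2.69 in the cortex, with 2.53 in the outer medulla, beside -0.07 and -0.05 over all tested probe sets. With values below the background mean set to it, the members' medians were 2.62 in the cortex, with 2.43 in the outer medulla. In bulk RNA, more cells of a type and more RNA per cell cannot be told apart. In the outer medulla alone 27 members were at least 1 higher, beside 8.58% of all tested probe sets, and in the cortex 28, beside 9.66%. The EG array was the highest of its zone for 31 members in the outer medulla and for 29 in the cortex, where 31.6% and 37.1% of all probe sets had that order. The cortex exceptions were the elastic fibre genes Eln and Fbln5. Col8a1, Col14a1 and Postn are in each of these counts as well.

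**Figure D1:**
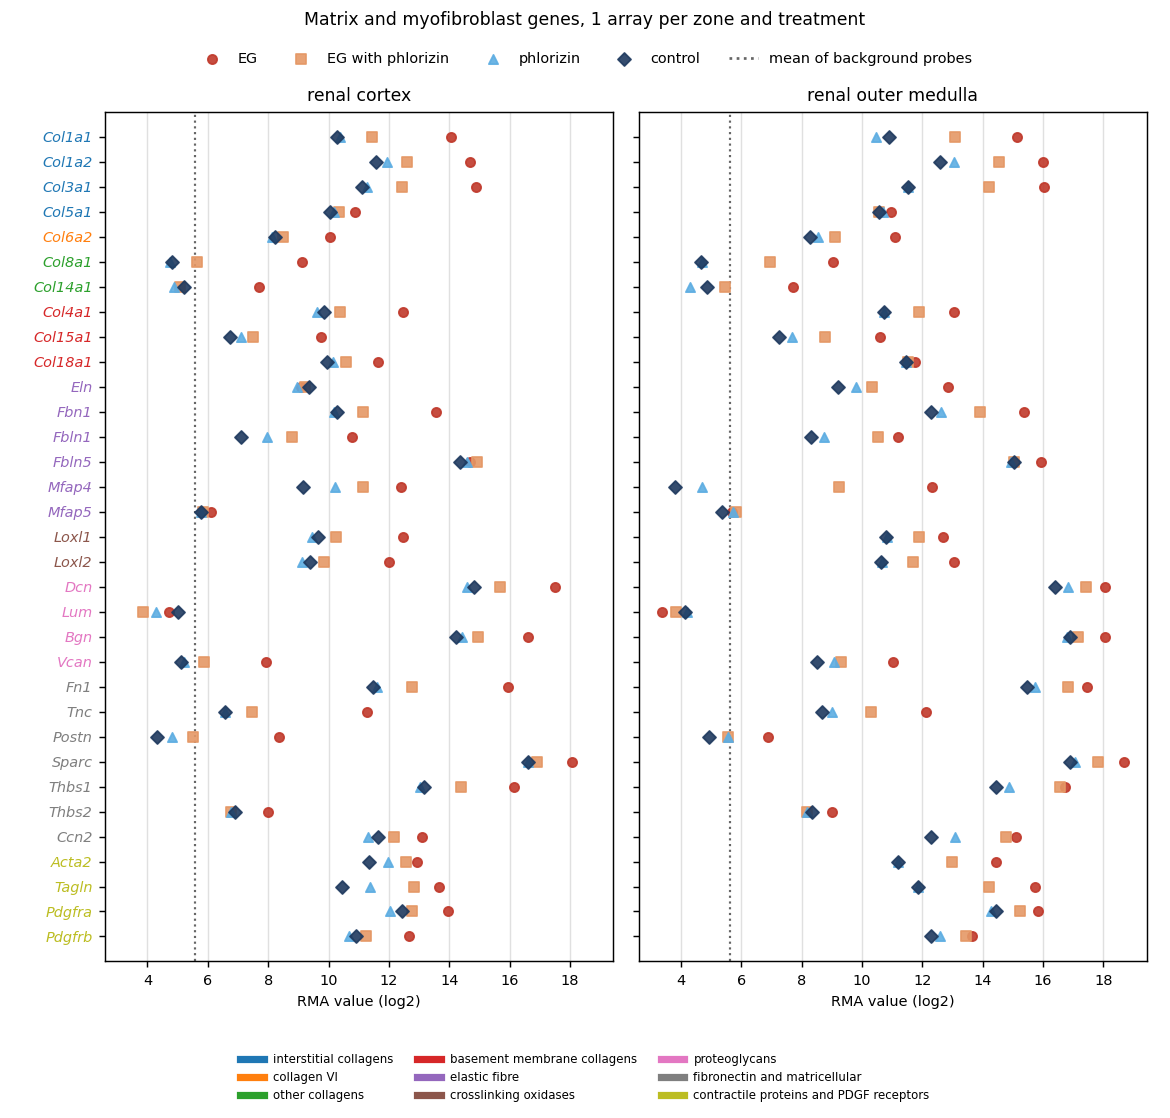
RMA values (log2) of the 33 measured genes in the renal cortex (left panel) and the renal outer medulla (right panel), 1 point per array. Red circles are EG, orange squares EG with phlorizin, light blue triangles phlorizin and dark blue diamonds control, and the dotted line is the mean of the background probes. Gene names are coloured by group. The red circles stand to the right of the other points for 29 of the 31 tested genes in the cortex and for all 31 in the outer medulla. These include Col8a1, Col14a1 and Postn, which reached the filter value on EG arrays alone.

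In the limma fit of the EG effect, made on the mean of both zones for each treatment and averaged over rats with and without phlorizin, 0 of the 31 members passed an adjusted p of 0.05, where 0.038% of all tested probe sets did. At an unadjusted p under 0.05, 27 members passed, all of them higher with EG, beside 9.85% of all tested probe sets in that direction, and Col5a1, Col18a1, Fbln5 and Thbs2 did not. Col8a1, Col14a1 and Postn, which reached the filter value on EG arrays alone, are among the 27. The lowest adjusted p of a member was 0.0771, shared by Tagln, Thbs1, Mfap4 and Ccn2, and the highest was 0.487, of Col5a1. That fit has 4 profiles and 1 residual degree of freedom, and an EG difference of unequal size with and without phlorizin enters it as residual spread. Other settings moved the count: 18 members passed with each array centred on its median, 16 without the filter, 22 with the 8 arrays fitted with treatment as a random block, and 9 in the outer medulla alone, all of them higher with EG. Of all probe sets in those fits, 3.46%, 1.73%, 6.31% and 1.8% were called higher, in the same order. With quantile normalization 0 members passed, as did 0 of all tested probe sets. In the cortex alone 0 members passed, beside 0.0532% of all tested probe sets in either direction.

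Among the interstitial collagens, which build the fibrils of scar tissue, the type I and type III chains stood far above control with EG and the type V chain did not. Col1a1, the alpha 1 chain of type I collagen, read 15.13 in the EG outer medulla, 13.10 in EG with phlorizin, 10.48 in phlorizin and 10.89 in control. In the cortex it read 14.06 in EG, 11.43 in EG with phlorizin, 10.38 in phlorizin and 10.28 in control. In both zones the EG and the EG with phlorizin array lay above the arrays without EG, with EG on top. The EG minus control difference of Col1a1 was 4.24 in the outer medulla, with 3.78 in the cortex, and its EG effect over both zones was 2.92 ± 0.49 (SE, limma adjusted p = 0.0809).

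Col3a1, the chain of type III collagen, also had EG on top and EG with phlorizin second in each zone. It stood at 16.03 in the EG outer medulla, 14.22 in EG with phlorizin, 11.52 in phlorizin and 11.51 in control, and at 14.87, 12.43, 11.28 and 11.12 in the same order in the cortex. Between EG and control, Col3a1 differed by 4.51 in the outer medulla, with 3.75 in the cortex. Col1a2, the alpha 2 chain of type I collagen, differed by 3.40 and 3.11, with values of 16.004 in EG and 12.60 in control in the outer medulla, and of 14.67 in EG and 11.56 in control in the cortex. Col5a1, a chain of the type V collagen that joins type I fibrils, differed by only 0.39 in the outer medulla (10.97 in EG, 10.58 in control) and 0.83 in the cortex (10.87 in EG, 10.04 in control).

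The promoter of Col1a2 is shown because this interstitial collagen gene was over 3 higher with EG in both zones. The 300 bases run from 250 before to 50 after the RefSeq start in build GRCr8, at chr4:33518307-33518606 on the + strand, with the TATA motif TATAAA and the reverse complement of the CCAAT motif in capitals.
Col1a2: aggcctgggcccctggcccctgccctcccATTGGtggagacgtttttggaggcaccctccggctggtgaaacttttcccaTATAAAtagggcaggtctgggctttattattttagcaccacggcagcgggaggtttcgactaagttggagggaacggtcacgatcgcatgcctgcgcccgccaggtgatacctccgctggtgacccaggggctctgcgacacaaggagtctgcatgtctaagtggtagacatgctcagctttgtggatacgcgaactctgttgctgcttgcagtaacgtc
TATAAA, read on both strands, is in the promoters of 4 of the 19 members that have a RefSeq promoter entry (Ccn2, Postn, Col1a2 and Tnc), and in 14.3% of all 27457 promoters. CCAAT, read on both strands, is in 8 of the 19 and in 37.7% of all promoters.

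Collagen VI, VIII and XIV genes among the members were higher with EG as well, and Col8a1 and Col14a1 were at background in control. Col6a2, a chain of the beaded-filament collagen VI, read 11.09 in EG and 8.29 in control in the outer medulla, and 10.06 in EG and 8.21 in control in the cortex, differences of 2.80 and 1.85. Col8a1, a chain of the network collagen of vessel walls, was above background in control in neither zone and read 9.05 in the EG outer medulla and 9.12 in the EG cortex, so that EG was at least 3.45 and at least 3.43 higher. Col14a1, a collagen that sits on the surface of fibrils, was above background on the EG arrays alone, at 7.71 in each zone, at least 2.11 higher than control in the outer medulla, with at least 2.03 in the cortex. Of the further collagen chains outside the members 1 was tested, Col11a1, a chain of a fibrillar collagen of cartilage, which read 7.73 in EG and 7.21 in control in the outer medulla, and 7.36 in EG and 7.66 in control in the cortex (limma EG effect -0.06, adjusted p = 0.899).

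Basement membrane collagens were higher with EG too, with Col18a1 near control in the outer medulla. Col4a1, a chain of the type IV network of all basement membranes, read 13.05 in the EG outer medulla, 11.89 in EG with phlorizin, 10.73 in phlorizin and 10.75 in control. In the cortex Col4a1 read 12.47 in EG, 10.38 in EG with phlorizin, 9.61 in phlorizin and 9.85 in control. Col4a1 thus differed between EG and control by 2.31 in the outer medulla, with 2.62 in the cortex. Col15a1, a collagen that ties basement membranes to interstitial fibrils, read 10.61 in EG and 7.24 in control in the outer medulla, and 9.74 in EG and 6.72 in control in the cortex. Col18a1, the precursor of endostatin, was 1.69 higher in the cortex (11.65 in EG, 9.96 in control) and 0.28 higher in the outer medulla, where all 4 arrays lay between 11.47 and 11.75.

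The other basement membrane genes, from a list of 7 tested genes, had smaller median differences, 0.73 in the outer medulla, with 0.37 in the cortex. With EG, 5 of the 7 were higher than control in both zones and 2 were lower in both. Agrn, the gene of the heparan sulfate proteoglycan agrin, was the only one of the 7 at least 1 higher in both zones, by 1.16 in the outer medulla, with 1.79 in the cortex. Col4a4, a chain of the mature glomerular type IV network, was lower with EG, at 11.67 in EG and 13.53 in control in the outer medulla, and at 9.87 in EG and 13.32 in control in the cortex. Lamb2, a laminin chain of the glomerular basement membrane, was 1.42 lower in the outer medulla, with 0.98 in the cortex. In the limma fit of the EG effect, 0 of these 7 passed in either direction, with adjusted p-values from 0.105 to 0.84, and at an unadjusted p under 0.05 Agrn and Lamc1 were higher and Col4a4 lower.

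Elastic fibre genes were higher with EG in the outer medulla, while Eln and Fbln5 stood near control in the cortex. Eln, the gene of elastin itself, read 12.86 in the EG outer medulla, 10.32 in EG with phlorizin, 9.82 in phlorizin and 9.22 in control. In the cortex all 4 Eln values lay between 8.95 and 9.34, with 9.08 in EG and 9.34 in control. Eln thus differed between EG and control by 3.64 in the outer medulla, with -0.26 in the cortex. The limma test of unequal EG differences between the zones, outer medulla minus cortex and averaged over rats with and without phlorizin, gave 2.08 ± 0.86 (SE, adjusted p = 0.424) for Eln, which did not pass.

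Mfap4, a microfibril-associated glycoprotein, had the largest measured EG difference of any member in the outer medulla. It read 12.31 in the EG outer medulla and 9.24 in EG with phlorizin, while 4.72 in phlorizin and 3.81 in control were not above background. Against control, EG was there higher by at least 6.72. In the cortex, where Mfap4 was above background on every array, it read 12.42 in EG, 11.15 in EG with phlorizin, 10.22 in phlorizin and 9.14 in control. The 2 zones were thus level with EG and far apart without it, and the test of unequal EG differences gave 4.41 ± 0.45 (SE, limma adjusted p = 0.187). With the outer medulla values that were not above background set to the background mean, it gave 3.06 ± 0.32 (SE, limma adjusted p = 0.166), and neither passed.

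Fbn1, the fibrillin of the microfibril, was higher by similar amounts in both zones. It read 15.36 in the EG outer medulla, 13.91 in EG with phlorizin, 12.63 in phlorizin and 12.29 in control, and in the cortex 13.57 in EG, 11.13 in EG with phlorizin, 10.18 in phlorizin and 10.29 in control. Fbln1, a fibulin that binds elastin and fibronectin, was 2.88 higher with EG in the outer medulla, with 3.69 in the cortex. Fbln5, a fibulin needed for assembly of elastic fibres, was 0.91 higher in the outer medulla, with 0.31 in the cortex, where the highest of its 4 values was that of EG with phlorizin, at 14.92.

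Among 7 tested elastic fibre genes outside the list of members, EG exceeded control by at least 1 in both zones for 2: Efemp2, which encodes fibulin-4, by 3.21 in the outer medulla, with 2.03 in the cortex, and Ltbp4, which encodes a binding protein of latent TGF-beta, by 2.47 and 1.48. Ltbp3 differed by 0.82 and 0.52. The crosslinking oxidases Loxl1 and Loxl2, which join elastin and collagen chains through lysine, were higher in both zones: Loxl1 by 1.88 in the outer medulla, with 2.83 in the cortex, and Loxl2 by 2.43 and 2.62. In the limma fit of the EG effect, 0 of the 7 genes outside the members passed, with a lowest adjusted p of 0.0809, and 2 were higher at an unadjusted p under 0.05.

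Proteoglycan genes were higher with EG in both zones, with larger EG minus control differences of Dcn and Bgn in the cortex. Dcn, which encodes decorin, read 18.05 in the EG outer medulla, 17.43 in EG with phlorizin, 16.82 in phlorizin and 16.38 in control. In the cortex Dcn read 17.49 in EG, 15.68 in EG with phlorizin, 14.60 in phlorizin and 14.80 in control, so its EG minus control difference was 1.66 in the outer medulla, with 2.69 in the cortex. Bgn, which encodes biglycan, differed by 1.15 (18.05 in EG, 16.89 in control) and by 2.40 (16.62 in EG, 14.22 in control). Vcan, the gene of the large proteoglycan versican, was 2.53 higher in the outer medulla, with at least 2.26 in the cortex, where it was not above background in control. The test of unequal EG differences gave adjusted p-values of 0.407 to 0.646 for the 3 genes, so the difference between the zones did not pass for any.

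Of 5 tested small leucine-rich proteoglycan genes outside the members, EG exceeded control by at least 1 in both zones for 0. Aspn, which encodes asporin, read 9.20 in EG and 11.89 in control in the outer medulla, and 7.13 in EG and 7.93 in control in the cortex, lower with EG in both zones. Omd, which encodes osteomodulin, differed by -0.34 in the outer medulla, with -1.57 in the cortex, while Ogn, which encodes osteoglycin, was higher by 1.02 and 0.82. In the limma fit of the EG effect, 0 of the 5 passed, with a lowest adjusted p of 0.1, and at an unadjusted p under 0.05 Ogn was higher, and Aspn and Omd were lower.

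Set side by side, the 4 kinds of matrix gene had overlapping EG differences, without a test between them. Median EG minus control differences in the outer medulla were 3.82 for the 4 tested interstitial collagens, 3.06 for the 5 elastic fibre genes, 2.31 for the 3 basement membrane collagens and 1.66 for the 3 proteoglycans. In the cortex the same medians were 3.43, 3.27, 2.62 and 2.69. The last was 2.40 with Vcan in control set to background, which gave the same order as in the outer medulla. That cortex order did not hold without the filter on low values. With Mfap5 included, the elastic fibre median there fell below that of the basement membrane collagens. The groups overlapped in each zone: interstitial collagens ran from 0.39 to 4.51 in the outer medulla, and basement membrane collagens from 0.28 to 3.37. At least 1 higher in both zones were 3 of 4 interstitial collagens, of the elastic fibre genes 3 of 5, of the basement membrane collagens 2 of 3, and of the proteoglycans 3 of 3.

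**Figure D2:**
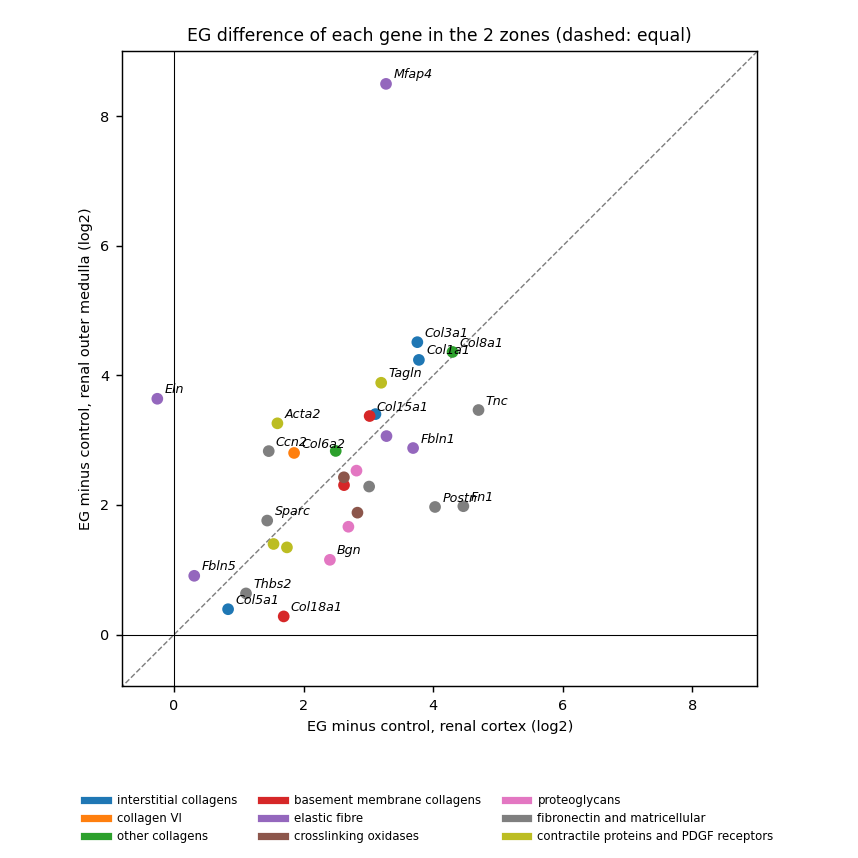
EG minus control difference of each tested gene (log2) in the renal cortex (horizontal axis) and in the renal outer medulla (vertical axis), 1 point per gene, coloured by group, with the dashed line where both are equal. Mfap4 (3.27 in the cortex and a measured 8.50 in the outer medulla, its control being at background) and Eln (-0.26 and 3.64) stand farthest above the line, and Fn1 (4.46 and 1.98) and Postn (4.03 and 1.97, its controls being at background) farthest below it.

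Fibronectin and the matricellular proteins, which tune how cells bind matrix, were higher with EG in both zones, and 6 of 7 by at least 1 in each. Fn1, the gene of fibronectin, read 17.44 in the EG outer medulla, 16.82 in EG with phlorizin, 15.72 in phlorizin and 15.46 in control. In the cortex Fn1 read 15.94 in EG, 12.75 in EG with phlorizin, 11.60 in phlorizin and 11.47 in control. The EG minus control difference of Fn1 was 1.98 in the outer medulla, with 4.46 in the cortex, and the test of unequal differences gave -1.27 ± 0.61 (SE, adjusted p = 0.482).

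Tnc, which encodes tenascin C, a matrix protein of wounds, read 12.13 in the EG outer medulla, 10.29 in EG with phlorizin, 9.02 in phlorizin and 8.67 in control. In the cortex its values were 11.27 in EG, 7.46 in EG with phlorizin, 6.59 in phlorizin and 6.57 in control. The cortex difference of 4.70 between EG and control was the largest in that zone among members above background on both arrays. Postn, which encodes periostin, was above background only on the EG arrays, at 6.90 in the outer medulla, with 8.34 in the cortex, so that EG was at least 1.31 and at least 2.66 higher than control. Sparc, which encodes a collagen-binding glycoprotein, was 1.76 higher in the outer medulla, with 1.44 in the cortex.

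Thbs1 and Ccn2 had among the smallest adjusted p-values of the EG effect. Thbs1 encodes thrombospondin 1, an activator of latent TGF-beta, and read 16.72 in the EG outer medulla, 16.57 in EG with phlorizin, 14.89 in phlorizin and 14.44 in control. In the cortex Thbs1 read 16.16 in EG, 14.40 in EG with phlorizin, 13.02 in phlorizin and 13.15 in control. Its EG effect over both zones was 2.09 ± 0.31 (SE, limma adjusted p = 0.0771). Thbs2, a related thrombospondin, differed less, with 8.99 in EG and 8.36 in control in the outer medulla, and 7.999 in EG and 6.89 in control in the cortex.

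Ccn2, which encodes connective tissue growth factor, read 15.12 in the EG outer medulla, 14.76 in EG with phlorizin, 13.09 in phlorizin and 12.28 in control. In the cortex it read 13.09 in EG, 12.15 in EG with phlorizin, 11.31 in phlorizin and 11.63 in control. The EG arrays and the EG with phlorizin arrays lay above both arrays without EG in each zone, and the EG effect was 1.70 ± 0.28 (SE, limma adjusted p = 0.0771).

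Genes of the contractile apparatus and receptors for platelet-derived growth factor were higher with EG by at least 1 in both zones, 4 of 4. Acta2, the gene of alpha smooth muscle actin and the usual marker of myofibroblasts, read 14.44 in the EG outer medulla, 12.97 in EG with phlorizin, 11.19 in phlorizin and 11.18 in control. In the cortex Acta2 read 12.93 in EG, 12.57 in EG with phlorizin, 11.98 in phlorizin and 11.34 in control. Tagln, which encodes the actin-binding protein transgelin, read 15.74 in the EG outer medulla, 14.22 in EG with phlorizin, and 11.85 both in phlorizin and in control. In the cortex Tagln stood at 13.65 in EG, 12.84 in EG with phlorizin, 11.39 in phlorizin and 10.46 in control, and its EG effect over both zones was 2.72 ± 0.39 (SE, limma adjusted p = 0.0771).

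Pdgfra and Pdgfrb encode the receptors of platelet-derived growth factors on fibroblasts and pericytes. Pdgfra was 1.40 higher with EG in the outer medulla (15.83 in EG, 14.43 in control) and 1.53 higher in the cortex (13.96 in EG, 12.43 in control). Pdgfrb was 1.35 and 1.74 higher. The EG minus control difference of Acta2 was larger in the outer medulla, 3.26, than in the cortex, 1.59, and the test of unequal differences gave 1.42 ± 0.29 (SE, adjusted p = 0.247), which did not pass.

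Promoters of Ccn2, Thbs1 and Acta2, each at least 1 higher with EG in both zones, are shown because each holds the motif GGAATG, the core letters bound by TEAD factors. They run from 250 before to 50 after the RefSeq start in build GRCr8: Ccn2 at chr1:22624565-22624864 on the - strand, Thbs1 at chr3:125510000-125510299 on the + strand, and Acta2 at chr1:241172454-241172753 on the - strand. Capitals mark GGAATG and, in Ccn2, also TATAAA.
Ccn2: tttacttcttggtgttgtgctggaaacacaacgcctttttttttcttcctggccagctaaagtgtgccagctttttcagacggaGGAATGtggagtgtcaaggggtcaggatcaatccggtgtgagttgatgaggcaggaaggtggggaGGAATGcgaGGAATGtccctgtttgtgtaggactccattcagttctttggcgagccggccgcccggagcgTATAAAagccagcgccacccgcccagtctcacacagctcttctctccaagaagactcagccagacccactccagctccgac
Thbs1: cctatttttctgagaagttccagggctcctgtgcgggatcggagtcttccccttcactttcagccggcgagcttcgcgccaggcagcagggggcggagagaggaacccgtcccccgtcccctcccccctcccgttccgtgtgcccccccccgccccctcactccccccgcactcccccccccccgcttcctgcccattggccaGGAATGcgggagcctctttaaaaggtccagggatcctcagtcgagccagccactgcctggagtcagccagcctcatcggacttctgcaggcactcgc
Acta2: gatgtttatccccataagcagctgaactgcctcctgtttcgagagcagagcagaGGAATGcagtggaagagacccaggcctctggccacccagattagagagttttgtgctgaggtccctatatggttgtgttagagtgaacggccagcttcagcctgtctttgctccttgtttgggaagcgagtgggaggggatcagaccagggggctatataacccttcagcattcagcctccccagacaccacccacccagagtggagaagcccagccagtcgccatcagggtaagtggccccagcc
GGAATG, read on both strands, is in 6 of the 19 member promoters (Ccn2, Acta2, Thbs1, Fbln5, Loxl1 and Sparc) and in 13.9% of the 27457 promoters. The promoter of Ccn2 holds it 3 times, and 0.106% of all promoters hold at least that many copies. Of the 6 genes, Fbln5 differed by under 1 between EG and control in both zones.

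Genes that make and process collagen had smaller median differences than the members. Among 13 tested genes of collagen synthesis and folding, 4 exceeded control by at least 1 in both zones, Bmp1, Fkbp10, Serpinh1 and Pcolce, the last 2 named after their values were seen, and the medians of the 13 were 0.66 in the outer medulla, with 0.94 in the cortex. Bmp1, a protease that trims procollagen, was 2.91 higher in the outer medulla, with 1.77 in the cortex. Fkbp10, a collagen chaperone, was 2.38 and 1.84 higher. Plod2, a lysyl hydroxylase, was 0.60 higher in the outer medulla, at 15.77 in EG and 15.17 in control, and 3.86 higher in the cortex, at 14.07 in EG and 10.22 in control. In the limma fit of the EG effect 0 of the 13 passed, with a lowest adjusted p of 0.0901, and at an unadjusted p under 0.05, 5 were higher and 1 lower, P4ha2, a prolyl hydroxylase subunit. Among 9 tested integrins and collagen receptors, 0 exceeded control by at least 1 in both zones, and Itga5, the fibronectin receptor chain, was 0.90 higher in the outer medulla, with 1.56 in the cortex, the collagen receptor chain Itga1 0.71 and 1.30, and Itgb1, the beta chain they share, 0.85 and 0.96. In limma 0 of these 9 passed for the EG effect, with a lowest adjusted p of 0.126, and 4 were higher at an unadjusted p under 0.05.

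Markers of other cell types differed with EG too. The 11 tested macrophage markers averaged 11.87 in the EG outer medulla, 10.95 in EG with phlorizin, 9.72 in phlorizin and 9.83 in control, and 11.30, 9.60, 8.70 and 8.69 in that order in the cortex, and EG exceeded control by at least 1 in both zones for 9 of the 11. Among 8 smooth muscle and pericyte markers, 2 exceeded control by that much in both zones (Cnn1, which encodes calponin, and Des, which encodes desmin), and the medians of the 8 were 1.73 in the outer medulla, with 0.996 in the cortex. Myh11, the smooth muscle myosin gene, read 9.06 in EG and 6.77 in control in the outer medulla, and 7.30 in EG and 8.95 in control in the cortex, while Smtn differed by -0.43 and 0.44. Among 4 tested fibroblast markers, 1 did, the gelatinase gene Mmp2, by 4.99 in the outer medulla, with 3.70 in the cortex, and the medians of the 4 were 1.22 in the outer medulla, with 1.07 in the cortex. Thy1 and Cd248 were lower with EG in the outer medulla, by -0.75 and -0.33 as EG minus control, and differed by 1.22 and 0.23 in the cortex, while Fap was not above background on any array. The 8 endothelial markers had medians of -1.12 in the outer medulla, with -0.94 in the cortex, and the 5 markers of the thick ascending limb had medians of -1.31 and -1.54 in that order. The 1 tested urothelial marker, Upk1b, was above background only in the EG outer medulla, at 7.76, at least 2.16 higher than in control. It reached the filter value on that array alone, so the filter fixed where its highest value lay. Myh11 was higher with EG in the outer medulla and not in the cortex, as was Eln. Rgs5 and Mcam, of the same list as Myh11, differed more in the cortex, by 2.00 and 1.88, than in the outer medulla, by 0.73 and 0.26. The part of these cell types in the matrix values was not tested.

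In rats given phlorizin, matrix genes were again higher with EG, and the differences were smaller for most members, without a test of that gap. EG with phlorizin was at least 1 higher than phlorizin in both zones for 5 of 31 members, Col1a1, Col3a1, Fn1, Thbs1 and Tagln, where 0.995% of all tested probe sets were. By zone, 18 members were at least 1 higher in the outer medulla, with 6 in the cortex, beside 3.65% and 2.43% of all probe sets. The median difference was 1.08 in the outer medulla, with 0.72 in the cortex (1.05 and 0.67 with values set to background), and 29 members were above 0 in both zones, beside 27.4% of all probe sets. Mfap4 had the largest of these differences, at least 3.60 in the outer medulla, followed there by Col3a1 with 2.70, Col1a1 with 2.62 and Tagln with 2.37. Col14a1 is among the 18 and the 29, though it was not above background on any array of this comparison. With values set to background, its difference was 0.02 in the outer medulla, with -0.03 in the cortex.

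**Figure D3:**
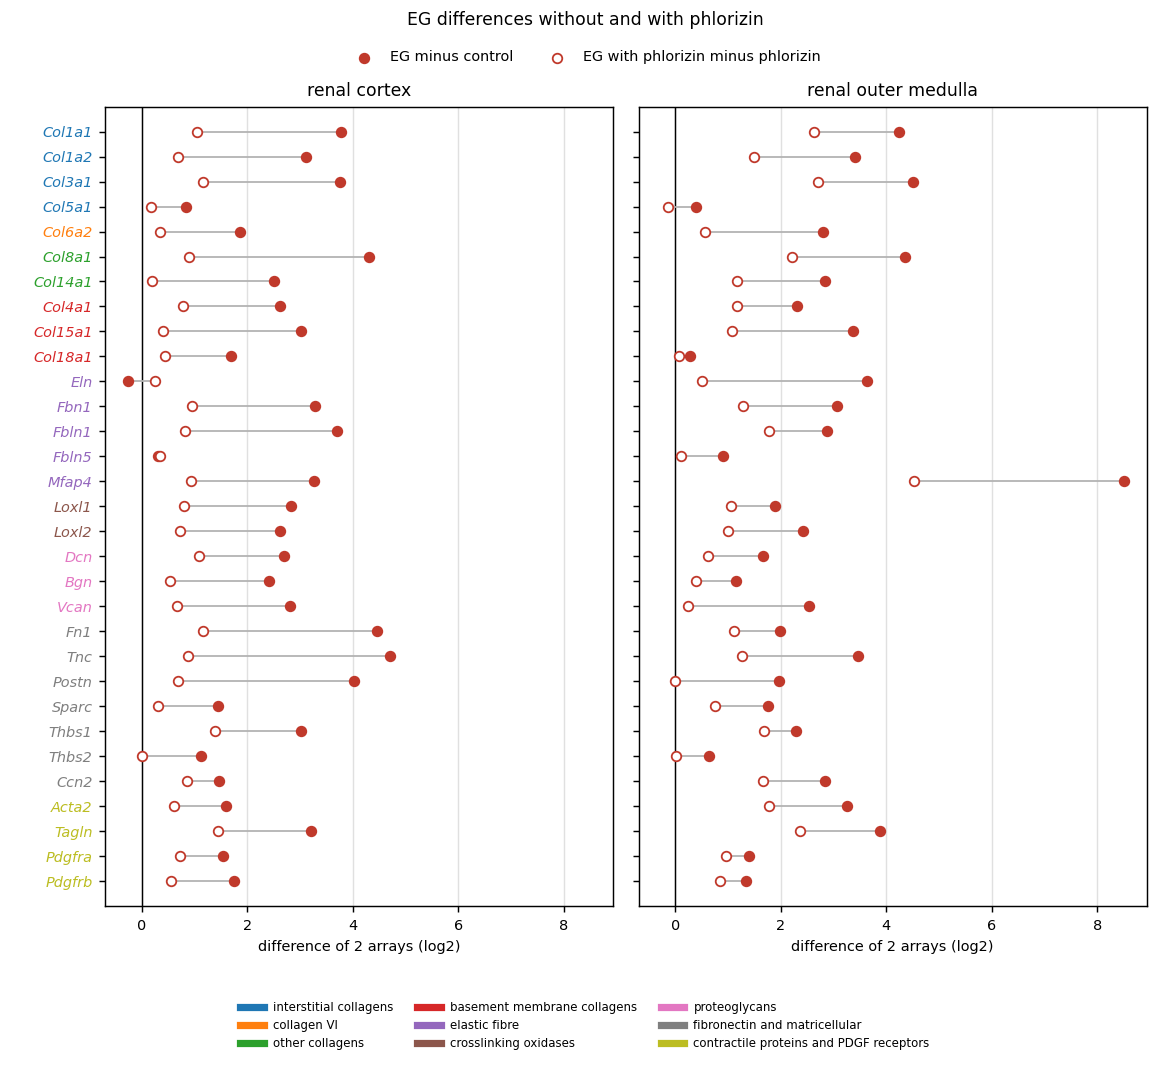
Differences of 2 arrays (log2) for the 31 tested genes in the renal cortex (left panel) and the renal outer medulla (right panel). Filled circles are EG minus control and open circles EG with phlorizin minus phlorizin, joined by a grey line for each gene, with gene names coloured by group. Open circles lie left of the filled ones except for Eln and Fbln5 in the cortex, with medians of 0.72 against 2.69 in the cortex and 1.08 against 2.53 in the outer medulla. Differences from values at background, as for Mfap4 in the outer medulla, are drawn as measured.

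By group, the median difference of EG with phlorizin minus phlorizin was, for the interstitial collagens, 2.06 in the outer medulla, with 0.86 in the cortex, and 1.28 and 0.82 for the elastic fibre genes. It was 1.08 and 0.44 for the basement membrane collagens and 0.39 and 0.66 for the proteoglycans. Contractile proteins and PDGF receptors had medians of 1.37 and 0.66. The interstitial collagens thus had the highest and the proteoglycans the lowest of these medians in the outer medulla, and no test sets the groups apart.

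Among rats given EG, those with phlorizin had lower matrix values. EG with phlorizin was at least 1 lower than EG in both zones for 14 of 31 members, where 1.71% of all tested probe sets were. The counts were 25 in the cortex, where the EG array had the low poly-A spikes, and 17 in the outer medulla, beside 6.18% and 4.34% of all probe sets. Hybridisation spikes were lowest on the EG array of each zone. The members' medians were -1.81 in the cortex, with -1.33 in the outer medulla, and 29 members were below 0 in both zones, beside 30.4% of all probe sets. With values set to background, the outer medulla median was -1.25 and the cortex median was as before. The macrophage markers had medians of -1.63 in the cortex, with -0.67 in the outer medulla, and their part in the matrix values was not tested. This comparison shares the EG arrays with the comparison of EG and control. Col8a1, Col14a1 and Postn, which reached the filter value on EG arrays alone, are among the 14.

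The gap between EG with phlorizin and EG differed among the genes. Tnc differed most in the cortex, by -3.80 (7.46 in EG with phlorizin, 11.27 in EG), followed by Col8a1 at -3.48 and Fn1 at -3.18. Mfap4 and Eln differed most in the outer medulla, Mfap4 by -3.08 (9.24 in EG with phlorizin, 12.31 in EG) and Eln by -2.54 (10.32 in EG with phlorizin, 12.86 in EG). Thbs1 was nearly level in the outer medulla, by -0.15, a sign that turned under quantile normalization, and Pdgfrb, Col18a1 and Ccn2 differed there by -0.21, -0.20 and -0.35. By group, interstitial collagens had medians of -2.25 in the cortex, with -1.64 in the outer medulla, basement membrane collagens -2.08 and -1.16, elastic fibre genes -1.27 and -1.45, proteoglycans -1.81 and -0.88, and contractile proteins and PDGF receptors -1.01 and -1.04.

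The order of treatments was shared by most members. EG was highest and EG with phlorizin second in both zones for 25 of 31 members, beside 8.68% of all tested probe sets. The 6 members without that order in both zones were Col5a1, Col14a1, Eln, Fbln5, Postn and Thbs2. Col8a1, which reached the filter value on EG arrays alone, is among the 25.

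With phlorizin and no EG, matrix genes stood near control. In both zones 0 of 31 members were at least 1 apart from control in the same direction, beside 0.0456% of all tested probe sets. Their medians were 0.02 in the cortex, with 0.17 in the outer medulla, and -0.07 and 0.05 with values set to background. Within a zone, 1 member was at least 1 higher, Mfap4 in the cortex, at 10.22 in phlorizin and 9.14 in control, where 0.653% of all tested probe sets were. The limma fit of the phlorizin effect over all 4 treatments averages rats with and without EG, so it does not test this comparison alone. In that fit 0 members passed, with an adjusted p of 0.995 for each, as did 0 of all tested probe sets. At an unadjusted p under 0.05, 2 members passed, Col1a1 and Col14a1, both lower with phlorizin in that average, beside 3.56% of all tested probe sets. Without EG, Col1a1 differed by 0.10 in the cortex, with -0.41 in the outer medulla, and Col14a1 was not above background.

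Between the zones, most matrix genes were higher in the outer medulla. In a limma fit of outer medulla minus cortex over the 8 arrays, with treatment as a block, 23 of 31 members were higher and 1 was lower at an adjusted p under 0.05. Over all tested probe sets, 32.7% were higher and 18.8% lower by that rule. Vcan differed by 3.43 ± 0.17 (SE, limma adjusted p = 2.85e-05), and lay between 8.50 and 11.03 in the outer medulla and between 5.13 and 7.94 in the cortex. The values of the 2 zones did not overlap, and Vcan was not above background in the cortex of phlorizin and control rats. With those values set to background its difference was 3.20 (limma adjusted p = 3.49e-05), below that of Fn1.

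Fn1 was 3.42 ± 0.45 higher in the outer medulla (SE, limma adjusted p = 0.00117), with zone differences of 1.505 in EG, 4.07 in EG with phlorizin, 4.12 in phlorizin and 3.99 in control. Fbn1 was 2.25 ± 0.20 higher (SE, limma adjusted p = 0.00024), Bgn 2.17 ± 0.22 (SE, limma adjusted p = 0.000411) and Pdgfra 2.14 ± 0.16 (SE, limma adjusted p = 0.000127). The type I and III collagen chains differed less, with 1.35 for Col1a2, 0.90 for Col3a1 and 0.86 for Col1a1, each at an adjusted p of at most 0.0324 in limma. All 3 proteoglycans, all 3 basement membrane collagens, both oxidases and 6 of 7 matricellular genes were higher in the outer medulla. With the arrays of any 1 treatment left out, 17 of the 24 called members passed every time, and Col1a1, Col3a1, Col6a2, Col18a1, Loxl1, Sparc and Mfap4 did not.

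Mfap4 was the member that was lower in the outer medulla, with a difference of -3.21 ± 0.90 (SE, limma adjusted p = 0.0237). Its limma adjusted p was 0.0943 without the control arrays, 0.0832 without the phlorizin arrays, 0.0558 without the EG with phlorizin arrays and 0.00092 without the EG arrays. Its zone difference was -0.10 in EG and -1.91 in EG with phlorizin, and the outer medulla was lower by at least 4.59 in phlorizin and by at least 3.55 in control, where Mfap4 was not above background. The limma estimate uses the measured values there, and was -2.54 with them set to background (limma adjusted p = 0.0186). Eln ran the other way, with zone differences of 3.78 in EG, 1.12 in EG with phlorizin, 0.86 in phlorizin and -0.12 in control, and its mean of 1.41 did not pass (limma adjusted p = 0.0796). Acta2, Col5a1, Col8a1, Col14a1, Fbln5 and Postn did not pass either.

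**Figure D4:**
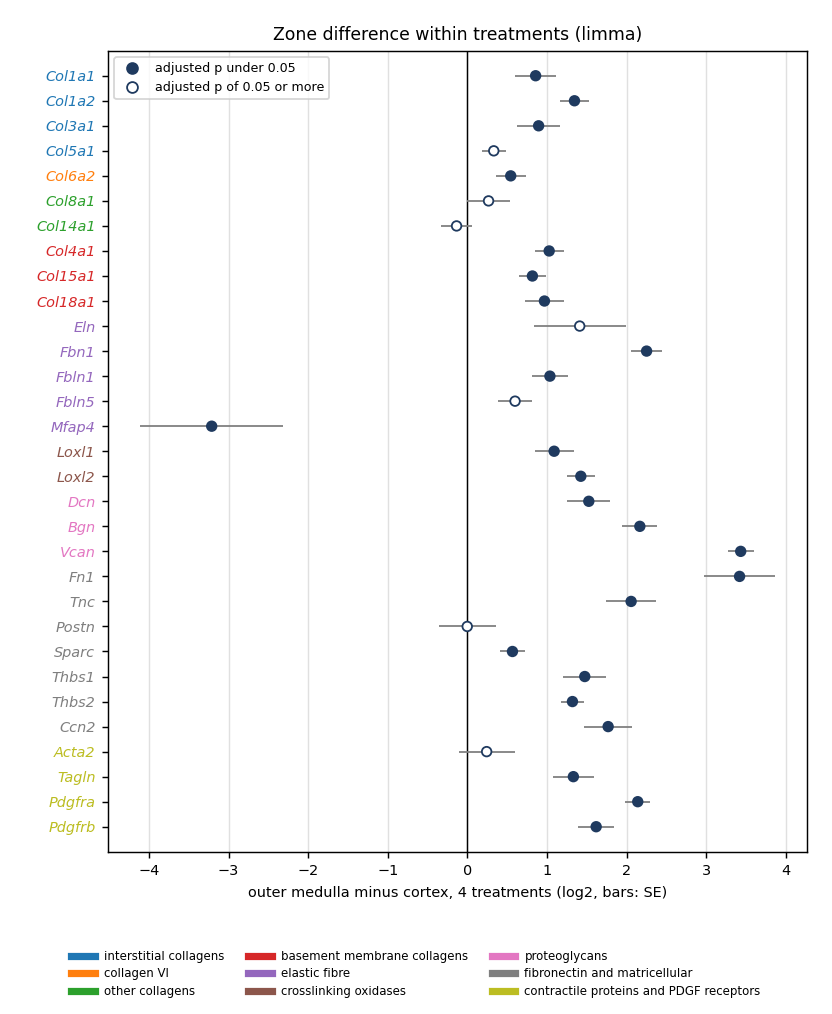
Difference of the renal outer medulla minus the renal cortex (log2) within treatments for the 31 tested genes, as the limma estimate over 4 treatments with its SE as bars. Filled points have an adjusted p under 0.05 and open points do not, and gene names are coloured by group. Of the filled points 23 lie right of 0, up to Vcan and Fn1 at 3.43 and 3.42, and Mfap4 lies left of 0 at -3.21.

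Whether the EG difference was unequal in the zones was tested on the outer medulla minus cortex differences of the 4 treatments. At an adjusted p under 0.05, 0 of 31 members passed, as did 0 of all tested probe sets in this limma fit. At an unadjusted p under 0.05, 7 members passed, beside 12.4% of all tested probe sets. For 6 of them, Acta2, Ccn2, Col1a1, Col3a1, Mfap4 and Tagln, the EG difference was larger in the outer medulla, and for Postn it was larger in the cortex. Postn was above background only on the EG arrays. With values set to background the same test counted 6 members, all of them larger in the outer medulla. Of the 13163 tested probe sets, 897 were counted in that direction. Postn was then at -0.65 (limma adjusted p = 0.574). With a mean-variance trend in the limma fit, Mfap4 passed with an adjusted p of 0.0386, on measured values that include 2 not above background. Of all tested probe sets, 0.365% passed in that fit, in either direction.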

How the data were processed

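RNA of 8 samples was read on Clariom S arrays. Per the submitters' processing notes, RMA made the deposited log2 values. Its version is not given, and the base of the logarithm was read from the range, 2.28 to 19.7. Of 24834 probe sets, 1646 controls were left out, which left 15049 with a gene name, all matched to a RefSeq gene ID, and 8139 unnamed here. The highest mean probe set stood for each symbol, and 13163 were tested.

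limma 3.58.1 in R 4.3.3 was run with moderated variances, 2-sided p-values and Benjamini-Hochberg adjustment over all tested probe sets. EG and phlorizin effects were fitted together on 4 zone-mean profiles, zones on 8 arrays with treatment as a block, and EG by zone on 4 zone differences. Fits were tested on simulated data with planted effects, in which no EG difference depended on phlorizin. Counts within zones rest on a log2 difference of at least 1. Python 3.11.15 was used for differences and figures. Promoters are from RefSeq, build GRCr8. Alternatives covered normalization, filter, probe set, variance prior, unit of the fit and size thresholds. All members are described, with up to 3 tested genes of each further matrix list, those with the largest absolute mean EG difference. Serpinh1, Pcolce, P4ha2 and Lamc1 were named besides, because they passed a size or p threshold. Cell type markers are given where a result is set beside them. The members and lists were chosen with earlier results of these data known.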

Additional observations from a re-analysis of the deposited data

Results flagged for a closer look

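For 12 genes, phlorizin went with lower values in both zones of EG kidneys and with higher values in both zones of kidneys without EG. The difference between these effects was not tested, since there is 1 array per zone and treatment. As the phlorizin effect in EG kidneys minus that in kidneys without EG, averaged over the zones on the log2 scale, it was -3.16 for Mfap4, -3.01 for Tnc, -2.66 for Postn, -2.46 for Col15a1, -2.23 for Vcan and -2.21 for Col3a1. It was -2.17 for Col1a2, -2.09 for Fn1, -1.98 for Fbln1, -1.24 for Acta2, -0.73 for Col18a1 and -0.60 for Col5a1. Without EG, Postn was not above background with or without phlorizin in either zone, nor was Vcan in the cortex or Mfap4 in the outer medulla, so those signs rest on values that have no order. Under quantile normalization 10 of the 12 had the pattern, and Col3a1 and Col18a1 did not. Without EG, their phlorizin differences were 0.16 and 0.19 in the cortex, with 0.004 and 0.003 in the outer medulla. Over all 13163 tested probe sets, 2770 were higher with phlorizin in both zones without EG. In EG kidneys 4006 were lower in both zones, and how many had both signs was not counted. Among the members, 29 of 31 were lower in EG kidneys, so the flag rests mostly on the sign without EG.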

How the results depend on the processing

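The count of members past an adjusted p of 0.05 for the EG effect was 0, and became 18 with each array centred on its median, 16 without the filter, 22 with the 8 arrays and treatment as a random block and 9 with the outer medulla arrays only, beside 6.01%, 2.72%, 12.9% and 2.7% of all probe sets called in either direction. Centring also gave 456 higher and 335 lower calls over all tested probe sets, beside 5 and 0. For EG by zone the count was 0 and became 1 with a mean-variance trend, beside 0.365% of all tested probe sets. That member was Mfap4, 2 of whose values were not above background. At size thresholds of 0.58 and 1.5 in place of 1, EG with phlorizin was higher than phlorizin in both zones for 18 and 0 members in place of 5 (3.06% and 0.266% of all tested probe sets), and lower than EG for 23 and 8 in place of 14 (5.17% and 0.486%). At 0.58, 1 member was apart between phlorizin and control in place of 0, beside 0.82% of all. Zone calls ran from 17 to 22 with 1 treatment left out, beside 24, and 35.5% to 56.8% of all tested probe sets were called there. In medians of EG minus control, values set to background, a setting chosen after seeing the data, gave 2.73 (cortex) and 2.78 (outer medulla) for Col8a1 and Col14a1, 2.40 for cortex proteoglycans and 2.66 for cortex matricellular genes. No filter gave 1.80 for cortex elastic fibre genes, below the cortex median of the basement membrane collagens, and 1.41 for outer medulla proteoglycans. The cause of these moves was not tested. Among these counts and group medians, 16 values moved and 142 kept their side or size. A reversal was defined for the medians alone, and 0 of them reversed. A count of 0 under both settings was scored as kept. Signs of single differences between arrays turned under quantile normalization for Thbs1, whose difference was -0.15, and for Thbs2, Col3a1, Col8a1 and Col18a1, and under centring for Thbs2, Sparc and Tagln, with sizes of at most 0.0345 apart from Thbs1. With values set to background, signs turned for Postn, Col14a1 and Vcan, with sizes of up to 0.67. Those were differences between values that were not above background. Centring shifted the median of all tested probe sets by up to 0.12. Zones were paired within treatments in the fits, and the labels give no replicate numbers for any further block. The number of arrays, and signal over background for dim genes, limit the precision.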
